A study of Mus musculus with 14 samples.

Results

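The 10 genes described here encode proteins that fuse, divide and remove mitochondria: Mfn1, Mfn2, Opa1, Dnm1l, Fis1, Mff, Fundc1, Pink1, Bnip3 and Bnip3l. They were taken by symbol from the 27099 genes of the count table, all 10 were found, and all 10 passed the filter on low counts. Bone marrow stromal cells (BMSCs) carrying the Nes-GFP reporter, in which green fluorescent protein follows the nestin gene, were sorted from AML mice and from normal mice as GFP+ cells negative for CD45, CD31 and DAPI, into a bright (Nes-GFP high) and a dim (Nes-GFP low) population. The AML mice were primary iMLL-AF9 mice, with rtTA expressed from ROSA26 and the human MLL-AF9 fusion under a tetracycline-response element. They received doxycycline and were taken once leukemia was evident, whereas control mice drank sucrose as vehicle, so that AML, its transgenes and the drug cannot be told apart. The labels call the control mice normal and give neither their alleles beyond the reporter nor the age of any mouse. There were 2 AML and 2 normal Nes-GFP high libraries, and 4 AML and 6 normal Nes-GFP low libraries. Some libraries held cells of a single mouse and others a pool of mice, and p-values measure the spread between these libraries.

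Mitochondria form a network that is constantly remodelled. The mitofusins Mfn1 and Mfn2 tether and join outer membranes, Opa1 joins inner membranes and shapes cristae, and the dynamin Dnm1l (known as DRP1) is recruited by receptors such as Mff and Fis1 to constrict and divide the organelle. Damaged or surplus mitochondria are removed by mitophagy, either after the kinase Pink1 marks them for ubiquitination or through outer membrane receptors (Fundc1, Bnip3 and Bnip3l, known as NIX) that bind the autophagosome directly; NIX is best known for clearing mitochondria from maturing red cells, and Bnip3 as a gene induced by low oxygen.

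Library totals ranged from 5615941 to 11436652 counts, and levels below are CPM, the counts of a gene scaled to a common library size by TMM, unless another unit is given. The libraries were amplified from few cells. Among the 10760 genes that averaged 10 CPM or more, 23.5% fell below 1 CPM in replicate 1 of the normal Nes-GFP high group and between 12.7% and 16.5% in the other Nes-GFP high libraries, against 1.81% to 12.8% in the Nes-GFP low libraries. That replicate was also the only library in which members lay under 1 CPM (Mfn2, Opa1 and Fundc1). The stromal label was checked against 15 stromal markers, of which at most 1 was at 0 in any library, with a summed level from 1421 to 89680 CPM. The study's methods add Ter119, a red cell marker, to the antigens excluded in the sort. RNA of blood cells was present all the same: 16 myeloid markers summed to between 773.2 and 108300 CPM, and 15 erythroid markers to between 12.1 and 4050 CPM. The myeloid sum exceeded the stromal sum in some libraries. From AML mice these were Nes-GFP low replicates 2 (19980 against 4521 CPM) and 3 (102600 against 1421 CPM). Replicate 1 of their Nes-GFP high cells was another (14180 against 9538 CPM). From normal mice they were Nes-GFP low replicates 3 (108300 against 12270 CPM) and 4 (54730 against 45420 CPM). Elsewhere the stromal sum was larger. The marker check thus shows that stromal RNA was present, not that it prevailed. In bulk libraries of this kind, fewer cells of a type and less RNA per cell cannot be told apart.

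The sequence that bears most on how these genes can be counted is that of Bnip3l. Bnip3l lies on chromosome 14 (GRCm38, 66985239 to 67008877, minus strand), and a transcribed processed pseudogene, Bnip3l-ps, lies on chromosome 12 (18216542 to 18217673, plus strand, a single exon). The pseudogene aligned to the Bnip3l transcript over 1131 bases with 99.4% identity and no gap, and its longest identical run was 393 bases. Of the 657 coding bases of Bnip3l, 4 differed. The pair below shows 60 of these bases, coding positions 138 to 197, chosen because 2 of the 4 differences (in capitals: G186A and A197G, Bnip3l base first, counted from the first coding base) fall within them; a read from this stretch that spans neither cannot be placed on 1 of the 2 genes by its sequence.
Bnip3l: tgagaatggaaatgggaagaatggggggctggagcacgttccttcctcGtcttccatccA
Bnip3l-ps: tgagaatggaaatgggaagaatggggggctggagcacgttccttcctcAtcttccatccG

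Among the members themselves the longest stretch shared by a pair was 21 bases, between Mfn1 and Mfn2. Without a statement that strand was used in counting, reads of Dnm1l, Mff and Bnip3 cannot be told from those of the genes Gm49521, C430014B12Rik and Gm45507, which lie on the opposite strand and share 243, 195 and 504 exon bases with them.

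Per kilobase of exon, the order of the members was led by the same 2 genes in every group. Fis1 averaged 92.4 ± 31.7 CPM per kb (SD, n = 6) in normal Nes-GFP low BMSCs and 103.5 ± 36.2 (n = 4) in AML Nes-GFP low BMSCs, the highest mean in both. Pink1 followed with 35.1 ± 14.5 and 65.5 ± 25.2 CPM per kb. Fis1 also led in normal Nes-GFP high BMSCs (84.3 ± 13.6, n = 2), whereas Pink1 led in AML Nes-GFP high BMSCs (90.2 ± 40.5, n = 2, against 68.4 ± 8.62 for Fis1). The difference between Fis1 and Pink1 was smaller than the SD of Pink1 in AML Nes-GFP high BMSCs. The fusion genes were the lowest members in normal Nes-GFP low BMSCs, where Opa1, Mfn1 and Mfn2 averaged 4.31 ± 2.09, 4.79 ± 3.49 and 5.43 ± 3.47 CPM per kb, differences well within their SDs. The order differed in normal Nes-GFP high BMSCs, where Mfn1 averaged 21.02 ± 29.2 CPM per kb and ranked 5 of 10, while Mfn2 (0.188 ± 0.197) and Fundc1 (0.328 ± 0.388) were the lowest.

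The members also differed in how evenly they were detected. Fis1 varied least, with its highest library 2.40 times its lowest, and Bnip3l varied 3.25 times. Mfn1 spanned 106.3 times, Mfn2 422.3 times and Fundc1 681.2 times, the last because a single count was seen in its lowest library. The normal Nes-GFP high libraries held the 2 lowest of the 14 values for both Mfn2 and Fundc1, which was so for no other member. In the other libraries Fundc1 lay between 25.6 and 85.9 CPM, whereas Mfn2 still ran from 2.23 to 106.5 CPM.

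**Figure D1:**
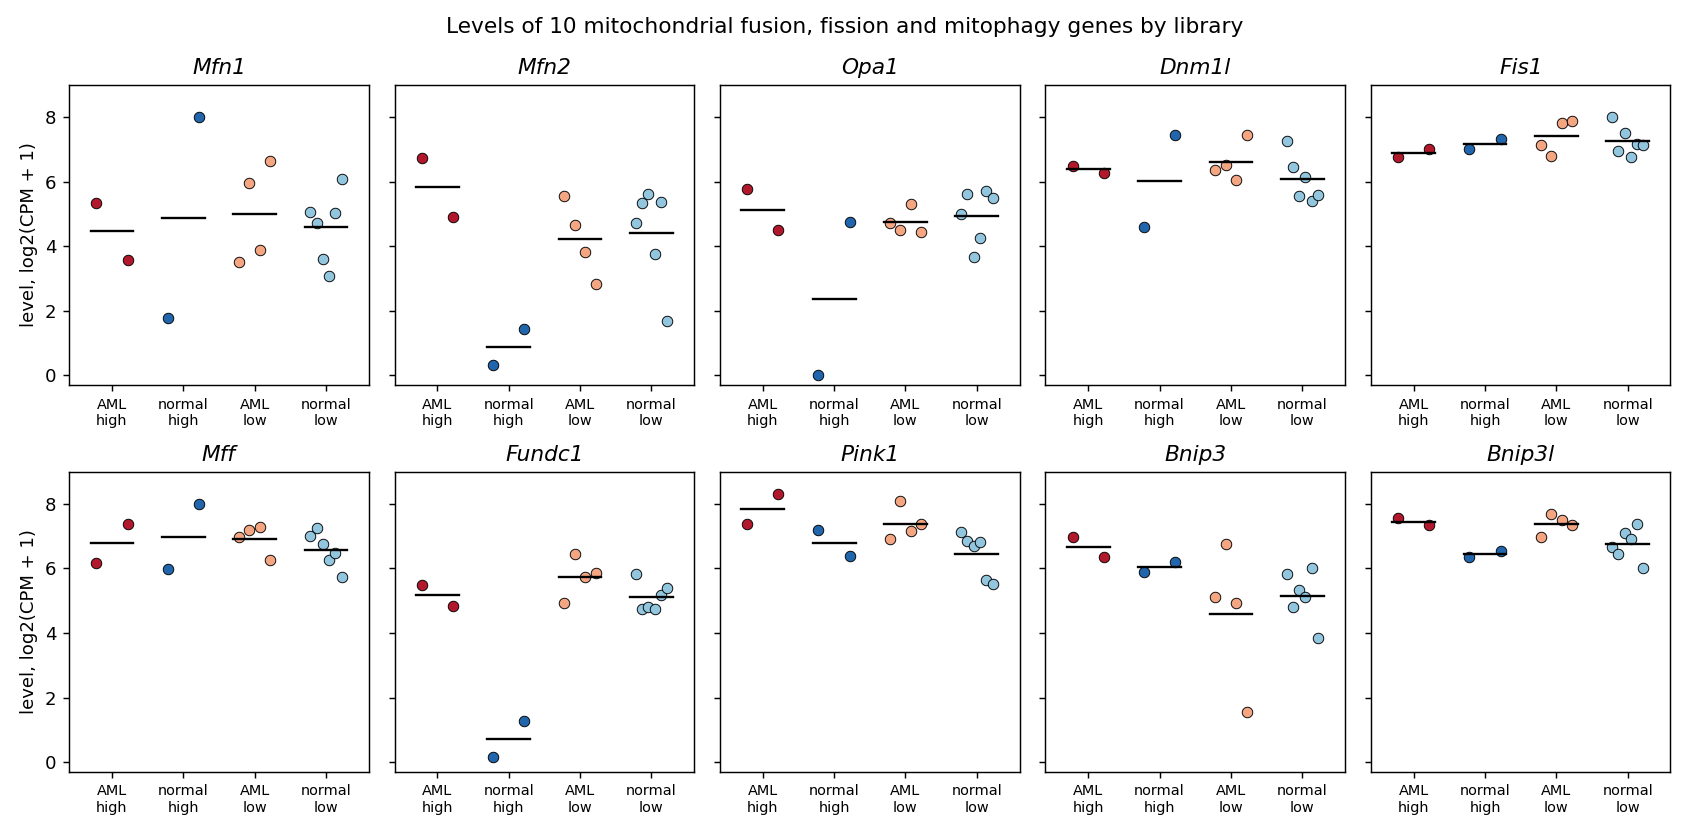
Level of each of the 10 genes in each of the 14 libraries, as log2(CPM + 1); each point is a library, horizontal lines are group means, and the groups are AML and normal, Nes-GFP high (n = 2 and 2) and Nes-GFP low (n = 4 and 6). For Fundc1 and Mfn2 both libraries of the normal Nes-GFP high group (Fundc1 0.126 and 1.42 CPM, Mfn2 0.252 and 1.70 CPM) are the lowest of the 14, with Mfn2 in normal Nes-GFP low replicate 6 (2.23 CPM) just above, while Fis1 varies little.

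The first comparison asked how leukemia changed Nes-GFP high BMSCs. Fundc1 and Mfn2 stood apart from the other members, with close to no reads in either normal library and clear expression in both AML libraries, but neither passed the main test. By edgeR's quasi-likelihood test (Benjamini-Hochberg adjusted p under 0.05, over all 18152 genes tested) 0 of 10 members were called, as were 0% of all genes. Before adjustment, 2 members were higher and 0 lower at p under 0.05, against 1384 and 825 of all genes. DESeq2, the tool of the study, called 2 members higher and 0 lower, where it called 5.94% of all genes tested higher and 3.96% lower, and limma voom called 0. All but the 4 libraries compared entered through the shared estimate of spread, the filter on low counts and the TMM scaling. With 2 libraries against 2 an exact test cannot go below p = 0.333.

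Fundc1, a mitophagy receptor known to act under low oxygen, was read at 44.2 and 27.4 CPM in the AML libraries and at 0.126 and 1.42 CPM in the normal ones, the latter from 1 and 10 counts. Both AML libraries were far above both normal libraries. The log2 fold change was 5.52 ± 1.11 (SE), with an adjusted p of 0.167 by edgeR and of 1.857e-08 by DESeq2. Pooled over libraries, 619 counts stood against 11, a ratio of 47.8 with an exact 95% interval of 26.5 to 96.3 that covers counting error only.

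Mfn2, the mitofusin that also tethers mitochondria to the endoplasmic reticulum, was read at 106.5 and 28.8 CPM in the AML libraries and at 0.252 and 1.70 CPM in the normal ones (2 and 12 counts). The AML libraries were again both higher, and they differed from each other as well. The log2 fold change was 6.10 ± 1.65 (SE), with an adjusted p of 0.247 by edgeR and of 0.000457 by DESeq2. Fundc1 and Mfn2 are among the mitochondrial genes that the study selected on these same libraries, so that their direction is not independent evidence.

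Mfn1 did not follow Mfn2. It was read at 39.8 and 10.99 CPM in the AML libraries and at 2.40 and 255 CPM in the normal ones, from 19 and 1795 counts, so that the normal libraries held both the lowest and the highest Mfn1 level of the 14. Its log2 fold change of -2.34 ± 1.62 (SE; edgeR adjusted p = 0.614) became 3.34 without normal replicate 2. As a share of the counts of both mitofusins, Mfn1 made up 27.2% (Wilson 95% interval 24.7 to 29.8) and 27.6% (23.4 to 32.3) in the AML libraries, and 90.5% (71.1 to 97.4) and 99.3% (98.8 to 99.6) in the normal ones. The 2 groups did not overlap in this share. By the level of single genes, 16.0% of all genes were fully higher and 11.5% fully lower between these 2 groups. No background was counted for shares of 2 genes. The share restates the low Mfn2 counts of the normal libraries (2 and 12) and is no separate result. Its first normal value rests on 21 mitofusin counts. In the Nes-GFP low libraries the share ran from 18.6% to 94.2% in AML and from 18.9% to 96.8% in normal mice, so that these groups spanned nearly the same range.

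Opa1, the inner membrane fusion dynamin, was read at 53.5 and 21.7 CPM in the AML libraries and at 0 and 25.8 CPM in the normal ones. The groups overlapped, and the 0 counts of normal replicate 1 allow a level of up to 0.378 CPM (3 counts). Its log2 fold change was 1.54 ± 1.55 (SE; edgeR adjusted p = 0.824). The 3 fusion genes together summed to 199.8 and 61.4 CPM in AML and to 2.65 and 282 CPM in the normal libraries.

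The fission genes showed no difference beyond the spread. Dnm1l, the dividing dynamin, was read at 88.5 and 76.7 CPM in the AML libraries and at 22.9 and 172 CPM in the normal ones. Mff, its outer membrane receptor, was at 71.6 and 166 CPM against 61.6 and 255 CPM, and Fis1 at 106.8 and 128 CPM against 128 and 161 CPM. For Dnm1l and Mff the normal values enclosed the AML values; for Fis1 both AML values were lower, the second by less than 1 CPM. The log2 fold changes were -0.24 ± 0.89, -0.41 ± 0.74 and -0.30 ± 0.56 (SE), and those of Dnm1l and Mff turned positive without normal replicate 2 (1.79 and 0.90).

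The other mitophagy genes were higher in both AML libraries than in both normal ones, by amounts that did not pass the test. Pink1, the kinase that accumulates on depolarised mitochondria, was read at 164.5 and 318 CPM against 145 and 82.7 CPM. Bnip3l was at 188 and 161 CPM against 81.3 and 92.6 CPM, and Bnip3 at 126 and 81.5 CPM against 57.9 and 72.5 CPM. Their log2 fold changes were 1.08 ± 0.68, 1.005 ± 0.54 and 0.67 ± 1.18 (SE), with edgeR adjusted p-values of 0.553, 0.465 and 0.9504. With Fundc1 the 4 mitophagy genes summed to 522 and 588 CPM in the AML libraries and to 284.5 and 249.2 CPM in the normal ones, whereas the 3 fission genes summed to 267 and 371 CPM against 213 and 589 CPM. In all, 5 of 10 members were higher in both AML than in both normal libraries (background 16.0% of genes) and 1, Fis1, was lower (11.5%). The median log2 fold change was 0.84 over the members and 0.08 over all genes tested. The members were chosen with earlier results of these data known, and all are read against the same normal libraries. Neither contrast with all genes is therefore independent evidence.

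Markers of other cell types also differed between these libraries. The erythroid markers summed to 139 and 12.1 CPM in the AML libraries and to 2851 and 142 CPM in the normal ones, with between 1 and 4 of the 15 markers at 0. The myeloid markers summed to 14180 and 2350 CPM against 36260 and 1913 CPM, with none of the 16 at 0, and the stromal markers to 9538 and 46430 CPM against 89680 and 66010 CPM. The 9 pericyte and smooth muscle markers, 1 or 2 at 0, summed to 496 and 527 CPM against 296 and 1636 CPM. Like the erythroid and stromal sums, those of 3 further lists did not overlap between AML and normal libraries. The 14 lymphoid markers, 5 to 7 of them at 0, summed to 11.03 and 143 CPM against 326 and 231 CPM, the 9 endothelial markers, 4 to 6 at 0, to 1.86 and 2.41 CPM against 48.3 and 6.24 CPM, and the 7 Schwann cell markers, 2 or 3 at 0, to 310 and 247 CPM against 183 and 209 CPM. The part of any of these in the values of Fundc1 and Mfn2 was not tested.

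Leaving out normal Nes-GFP high replicate 2 changed how many genes edgeR called, from 0 to 194 of the 20733 then tested (0.936%), 2 members among them. The 2 members were Fundc1 and Opa1, with log2 fold changes of 7.96 and 11.48. In the only normal library left, Fundc1 had 1 count, under the floor of 3 counts, and Opa1 had 0. Both fitted values thus rest on a library under the floor, and that of Opa1 depends on the prior count and is no bound. Without normal replicate 1, in which 23.5% of well expressed genes lay under 1 CPM, the log2 fold changes of Fundc1 and Opa1 were 4.75 and 0.64 and no member was called. A single library left in a group is taken by the fit to vary like the other groups.

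**Figure D2:**
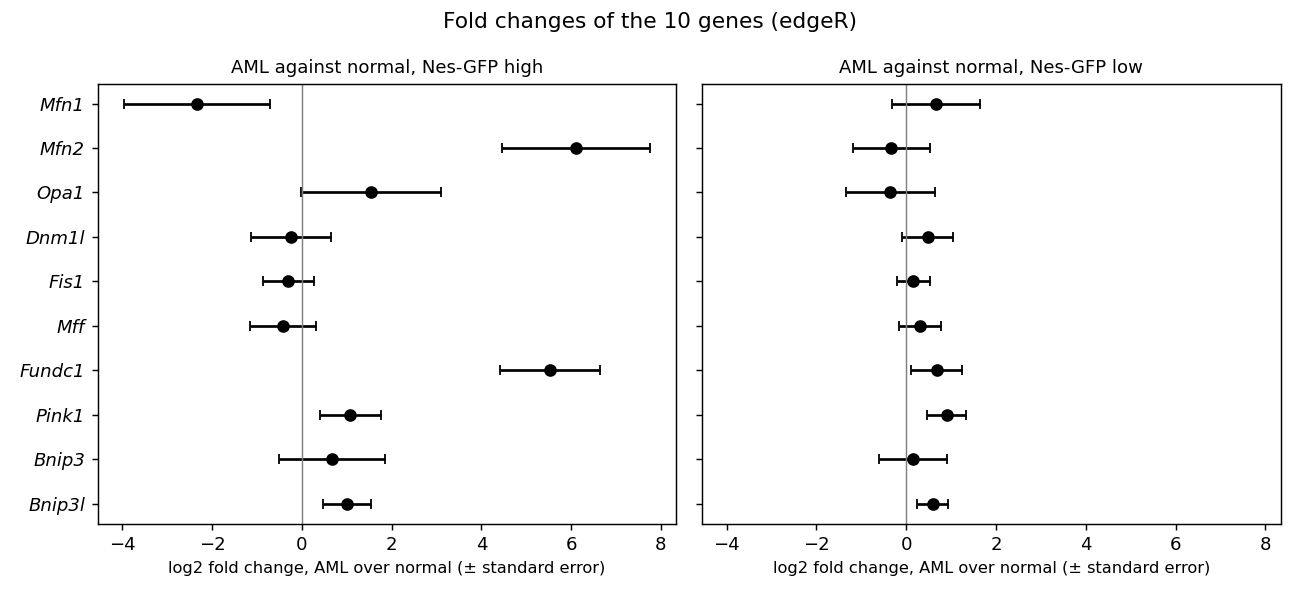
Log2 fold change of AML over normal BMSCs for the 10 genes, Nes-GFP high on the left and Nes-GFP low on the right; points are edgeR estimates from all 14 libraries and bars are 1 standard error. Mfn2 (6.10) and Fundc1 (5.52) lie far to the right in Nes-GFP high BMSCs, and all members lie between -0.35 and 0.90 in Nes-GFP low BMSCs.

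The same question in Nes-GFP low BMSCs had more libraries behind it and gave smaller values. The largest was that of Pink1, at 120.1, 272, 142.5 and 166 CPM in AML mice against a lowest of 44.4, a median of 107.5 and a highest of 140.3 CPM in normal mice. All 4 AML values lay above the normal median, with 1 of them below the highest normal value and another, 142.5 CPM, close to it. The log2 fold change was 0.90 ± 0.43 (SE; edgeR p = 0.0563, adjusted p = 0.945), and a two-sided exact permutation test on log2(CPM + 1) over all 210 assignments gave a difference of 0.95 with p = 0.0429. The smallest p that this design allows is 0.00952, and over all genes tested no exact p passed adjustment (smallest 0.800).

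Bnip3l was read at 126, 206, 181 and 163 CPM in AML Nes-GFP low BMSCs, against 63.5, 110 and 165 CPM (lowest, median and highest) in normal ones. Its groups overlapped, with an exact p = 0.0571 for a log2 difference of 0.63. Fundc1 was read at 29.3, 85.9, 52.5 and 56.7 CPM against 25.6, 31.3 and 55.8 CPM, and the exact permutation test gave p = 0.0857 for a difference of 0.62. Fundc1 was therefore readily detected in all 10 Nes-GFP low libraries, in normal mice as in AML mice.

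For the other 7 members the exact p ran from 0.276 to 0.814. Mfn2 was read at 46.1, 24.3, 13.03 and 6.19 CPM in AML mice and at 2.23, 32.7 and 48.4 CPM (lowest, median and highest) in normal mice, ranges that nearly coincide. Bnip3 was at 33.5, 108, 29.5 and 1.96 CPM against 13.3, 36.7 and 64.3 CPM, its lowest value of 12 counts coming from AML replicate 4. The direction of Bnip3 depended on the scale: it was 0.15 higher in AML by edgeR, which averages on the count scale, and 0.57 lower as a mean difference of log2(CPM + 1).

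By edgeR 0 of 10 members were called in Nes-GFP low BMSCs (0% of all genes). Before adjustment no member had p under 0.05, while 480 genes did so as higher and 526 as lower. DESeq2 also called 0 members, with a background of 0.246% higher and 0.492% lower, and voom called 0. The exact test passed 0.05 for 1 of 10 members higher and 0 lower, beside 2.39% and 2.52% of all genes tested. No member separated the groups fully, beside 0.441% of genes fully higher and 0.667% fully lower in AML. In this population 8 members had a positive log2 fold change and 2, Mfn2 and Opa1, a negative one, with a median of 0.40 against 0.003 over all genes. This contrast is likewise no independent evidence, since the members were chosen with earlier results of these data known. The erythroid markers summed to between 16.9 and 2899 CPM in the AML libraries and to between 447 and 4050 CPM in the normal ones, and all 15 had a negative log2 fold change. The stromal markers summed to between 1421 and 35600 CPM in AML and between 6979 and 74300 CPM in normal mice, and the myeloid markers to between 7025 and 102600 CPM and between 773.2 and 108300 CPM. The Schwann cell markers summed to between 149 and 284 CPM in AML and between 99.5 and 221 CPM in normal mice. The part of these cell types in the values of Pink1 and Bnip3l was not tested.

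Nes-GFP high and low BMSCs were compared next within normal mice, which uses the same normal Nes-GFP high libraries as above. Fundc1 was lower in the high population, at 0.126 and 1.42 CPM, than in any of the 6 low libraries, where it lay between 25.6 and 55.8 CPM. The log2 fold change was -5.49 ± 1.06 (SE), with an adjusted p of 0.230 by edgeR and of 4.303e-11 by DESeq2. Mfn2 was likewise below all 6 low libraries, the nearest of which was normal Nes-GFP low replicate 6 at 2.23 CPM, and its log2 fold change was -4.84 ± 1.48 (edgeR adjusted p = 0.297, DESeq2 0.000708). By edgeR 0 of 10 members were called (0% of all genes), and before adjustment 2 were lower with p under 0.05, beside 1660 of all genes, with 382 of all genes higher. DESeq2 called these 2 lower and 0 higher, with a background of 9.82% lower and 0.712% higher, and voom called 0. The same 2 of 10 members did not overlap between the populations (background 7.86% lower), and no member was fully higher (3.47%). The other 8 members had log2 fold changes from -1.40 (Opa1) to 2.13 (Mfn1). Without normal high replicate 2, the log2 fold changes of Fundc1 and Opa1 were -7.92 and -11.32. They again rest on 1 and 0 counts in the only normal high library left, under the floor of 3 counts.

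In AML mice neither gene was low in the high population. Fundc1 stood at 44.2 and 27.4 CPM in Nes-GFP high against 29.3 to 85.9 CPM in Nes-GFP low BMSCs, and Mfn2 at 106.5 and 28.8 CPM against 6.19 to 46.1 CPM. The log2 fold changes were -0.65 ± 0.80 and 1.59 ± 1.10 (SE), and those of the other members lay between -0.87 (Mfn1) and 1.26 (Bnip3). By edgeR 0 of 10 members were called (0% of all genes), and before adjustment 0 had p under 0.05, beside 453 of all genes as higher and 1176 as lower. DESeq2 called 0 members, with a background of 0.741% higher and 6.07% lower, voom called 0, and every member overlapped between the populations (background 6.91% fully higher and 8.83% fully lower). Cell type markers differed between the populations. In AML mice 15 of 15 stromal markers were higher in Nes-GFP high BMSCs, while 16 of 16 myeloid and 11 of 15 erythroid markers were lower. In normal mice these counts were 14 of 15, 14 of 16 and 13 of 15. Their part in the values above was not tested.

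Whether AML acted differently on the 2 populations was tested as an interaction, which again rests on the same 2 normal Nes-GFP high libraries. It was 6.43 ± 1.81 on the log2 scale for Mfn2 and 4.84 ± 1.19 for Fundc1 (SE), with edgeR adjusted p-values of 0.349 and 0.305 and DESeq2 adjusted p-values of 0.00388 and 8.713e-05. Of the other members, Mfn1 had the widest difference, at -3.001 ± 1.89 (edgeR adjusted p = 0.666). By edgeR 0 of 10 were called (0% of all genes), and before adjustment 2 members had p under 0.05, both positive, beside 1164 positive and 644 negative differences among all genes. DESeq2 called 2 members higher and 0 lower, beside 3.19% and 1.74% of all genes, and voom called 0. Without normal high replicate 2, the differences were 7.27 for Fundc1 and 11.82 for Opa1. They rest on the same 1 and 0 counts in the only normal high library left, under the floor of 3 counts.

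Counts were also given to the pseudogene of Bnip3l. Whether they were reads of its own RNA or of Bnip3l was not tested. Bnip3l-ps held between 23.6% and 31.9% of the counts of both genes in 13 of the 14 libraries. In normal Nes-GFP high replicate 2 it held 9.43% (68 of 721 counts, Wilson 95% interval 7.51 to 11.8), whose upper bound lies below the lower bound of every other library. In normal Nes-GFP high replicate 1 the share was 24.1% (21.4 to 27.1), close to the rest. Adding the counts of both genes gave a log2 fold change of 1.25 ± 0.52 in place of 1.005 ± 0.54 for AML against normal Nes-GFP high BMSCs (edgeR adjusted p = 0.382) and of 0.54 in Nes-GFP low BMSCs (edgeR adjusted p = 0.9998). The direction for Bnip3l was kept in all 5 comparisons.

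**Figure D3:**
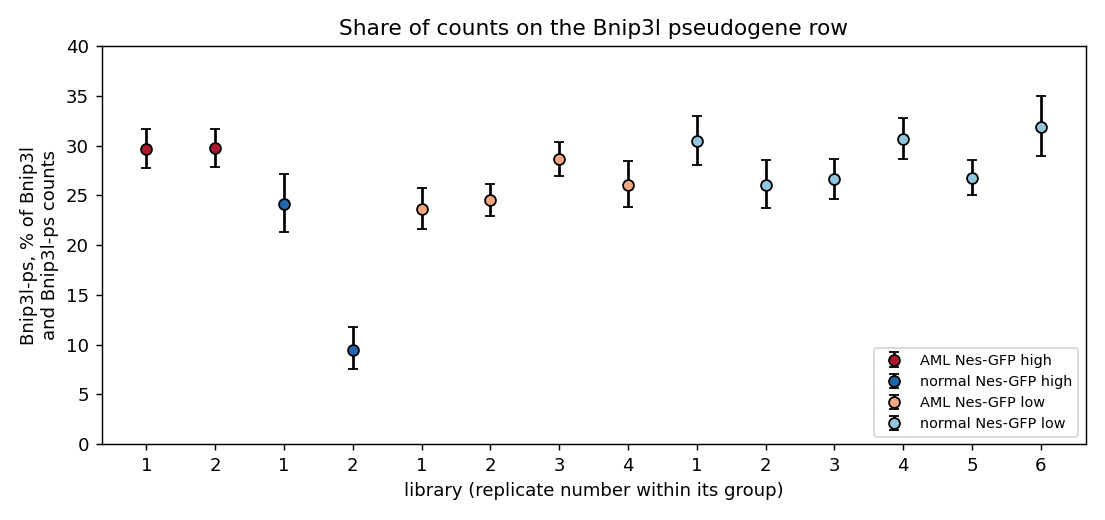
Share of the Bnip3l-ps row in the counts of Bnip3l and Bnip3l-ps together, in percent, for each of the 14 libraries; bars are Wilson 95% intervals and cover counting error only. The share lies between 23.6% and 31.9% in 13 libraries and at 9.43% in normal Nes-GFP high replicate 2.

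The levels of 6 lists of related genes, drawn with earlier results of these data known, were set beside the members. They covered partners of fusion (18 genes tested) and of fission (17), mitophagy through ubiquitin (20) and through receptors (15), the core of the autophagosome machinery (29) and the response to low oxygen (25). EdgeR called 0 genes of each list in each comparison. In AML against normal Nes-GFP high BMSCs, DESeq2 called 8 of the 124 genes of the 6 lists higher (6.45%) and 3 lower (2.42%), shares close to the 5.94% and 3.96% of all genes, and in Nes-GFP low BMSCs 0. The genes below are therefore given as descriptions, not as a result about the lists. The medians of the lists in Nes-GFP high BMSCs lay between -0.46 (fusion partners) and 0.77 (low oxygen), with 0.08 over all genes.

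Several of the genes that DESeq2 called shared the pattern of Fundc1 and Mfn2, with few reads in both normal Nes-GFP high libraries. Nbr1, an autophagy receptor for ubiquitinated cargo, was read at 92.2 and 148 CPM in the AML libraries and at 1.14 and 3.97 CPM in the normal ones (log2 fold change 5.55 ± 1.24, edgeR adjusted p = 0.176, DESeq2 3.096e-05). Uvrag, a part of the class III phosphoinositide 3-kinase complex that acts in autophagosome and endosome traffic, was at 55.1 and 157 CPM against 0.378 and 1.14 CPM (7.12 ± 1.67, edgeR 0.176, DESeq2 2.703e-05). Ulk2, a kinase that starts autophagy, was at 31.3 and 36.9 CPM against 0.252 and 1.28 CPM (5.46 ± 1.71, DESeq2 0.00496).

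Others went the opposite way. Mul1, a mitochondrial ubiquitin ligase that acts on mitofusins, was read at 1.49 and 0.523 CPM in the AML libraries and at 17.6 and 80.7 CPM in the normal ones (log2 fold change -5.60 ± 1.68, edgeR adjusted p = 0.279, DESeq2 0.00130). Pik3r4, the regulatory subunit of the same lipid kinase complex as Uvrag, was at 0.495 and 0.105 CPM against 0 and 105 CPM, so that its call rests on 1 normal library (DESeq2 adjusted p = 0.00122). Fam73b, known as MIGA2 and named for its part in mitochondrial fusion, was at 0.124 and 0.105 CPM against 0 and 21.6 CPM (DESeq2 0.00920). Thus 2 of the 3 genes that DESeq2 called lower had 0 counts in normal replicate 1.

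The other named list genes that DESeq2 called had adjusted p-values closer to the threshold. Oma1, a protease that cleaves Opa1, was read at 0.495 and 42.2 CPM in the AML libraries and at 0 and 1.28 CPM in the normal ones (log2 fold change 5.04 ± 2.18, DESeq2 adjusted p = 0.0462). Stx17, a SNARE of the autophagosome that was placed among the fission partners, was at 42.9 and 23.4 CPM against 4.41 and 1.56 CPM (3.46 ± 1.31, DESeq2 0.0456), and Mief1, a receptor for Dnm1l, at 50.9 and 0.628 CPM against 0 and 0.851 CPM (5.89 ± 2.52, DESeq2 0.0423). For Oma1 and Mief1 a single AML library carried the difference. Fbxl4, which limits mitophagy through Bnip3 and Bnip3l, was at 108 and 6.90 CPM against 0 and 0.709 CPM (7.31 ± 2.93, DESeq2 0.0170).

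**Figure D4:**
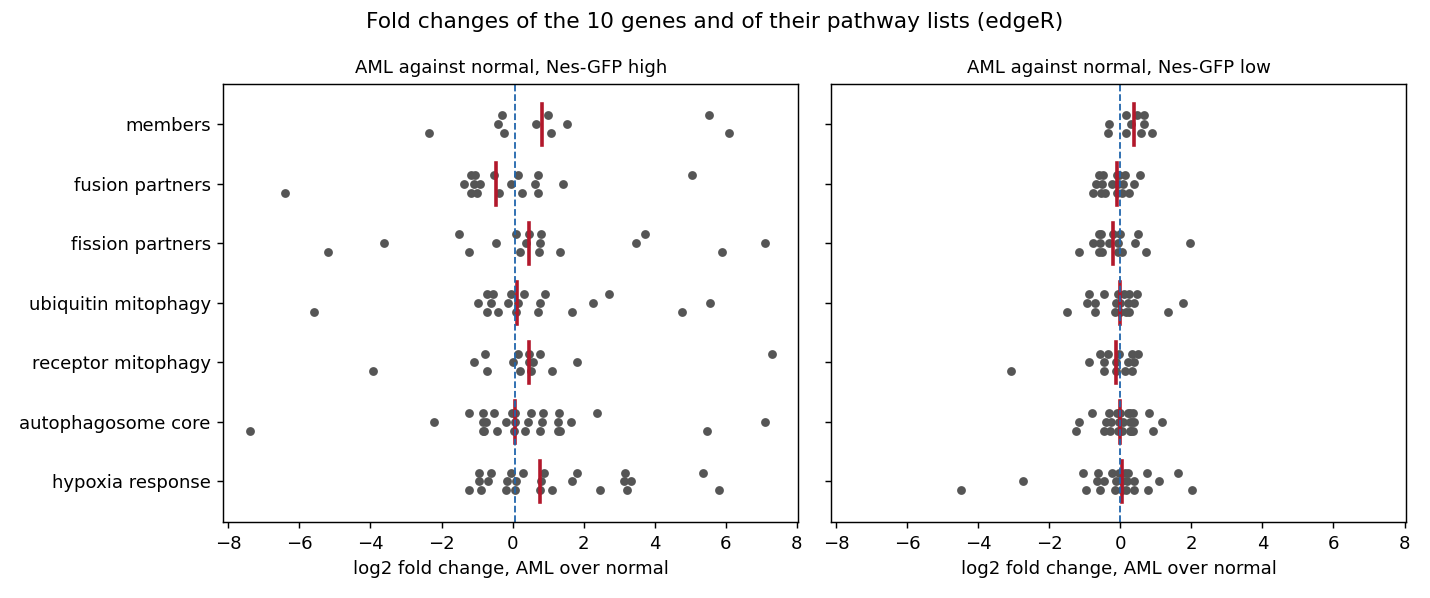
Log2 fold change of AML over normal BMSCs for the 10 genes (members) and for the genes tested of 6 related lists, Nes-GFP high on the left and Nes-GFP low on the right; each point is a gene, red bars are medians and the dashed line is the median of all genes tested. Each of the 6 lists holds at least 1 gene with a fold change beyond 4 on the log2 scale in Nes-GFP high BMSCs, and the median of the members is 0.84 there and 0.40 in Nes-GFP low BMSCs.

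Bnip3 is induced by low oxygen in many cells. Its promoter is therefore printed beside the low oxygen list, with matches to the core letters of the low oxygen element marked. The 250 bases before the RefSeq start (GRCm38.p6, chr7:138909507-138909756, minus strand) hold 5 matches to ACGTG or GCGTG on either strand, of which 2 overlap as CACGTG; matches are in capitals, and the last 13 bases lie within the GENCODE gene. At least 1 such match is present in 38.6% of the 32851 promoters of this length, and CACGTG in 6.02%. The share of promoters with 5 matches was not counted. Promoters of Mfn2, Dnm1l and Pink1 also hold at least 1 match. Whether any match acts in these cells was not tested.
Bnip3: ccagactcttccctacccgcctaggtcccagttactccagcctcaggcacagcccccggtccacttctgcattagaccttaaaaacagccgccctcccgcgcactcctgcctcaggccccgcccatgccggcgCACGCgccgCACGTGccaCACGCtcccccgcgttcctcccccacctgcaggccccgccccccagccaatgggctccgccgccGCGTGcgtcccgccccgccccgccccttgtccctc

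Of the 25 low oxygen genes, 16 had a positive and 9 a negative log2 fold change in AML Nes-GFP high BMSCs, and 13 and 12 in AML Nes-GFP low BMSCs. The glucose transporter gene Slc2a1 was read at 114 and 45.7 CPM in the AML libraries and at 14 and 3.97 CPM in the normal ones (log2 fold change 3.15 ± 1.20, edgeR adjusted p = 0.345, DESeq2 0.0493). It was the only gene of this list that DESeq2 called there. Pdk1, which holds pyruvate out of the citric acid cycle, was at 51.0 and 5.13 CPM against 0 and 0.993 CPM (DESeq2 0.0570).

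In Nes-GFP low BMSCs the list genes with the smallest p were not called by either tool. Park2, which encodes the ubiquitin ligase Parkin that Pink1 activates, was read at 5.78, 7.10, 5.36 and 24.1 CPM in AML mice and at 7.80 to 101 CPM in normal mice, with a log2 fold change of -1.50 ± 0.88 (SE). Dnm2, a dynamin that has been placed in membrane division, was at 196, 300.3, 386 and 287 CPM against 164 to 255.9 CPM, with a log2 fold change of 0.51 ± 0.34. The adjusted p by edgeR's quasi-likelihood test was 0.9999 for both Park2 and Dnm2.

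Over the 14 libraries the genes whose log2(CPM + 1) ran most like a member's were Zfp655, Wnk1 and Mcm3ap for Fundc1 (Pearson's r = 0.94 for each) and Mrps31, Mpp5 and Tfam for Mfn2 (r = 0.93, 0.91 and 0.90). For Bnip3 they were Rexo4, Nfx1 and Agfg2 (0.91, 0.90 and 0.90), and for Bnip3l they were Ctns, Trim59 and Gatsl2 (0.85, 0.85 and 0.84). These are descriptions chosen as the highest among 10760 genes, and the points share library depth and the near absence of many genes in 1 library. Between members, r ran from -0.47 (Fis1 and Bnip3) to 0.70 (Opa1 and Fundc1). Fundc1 and Mfn2, which shared the low values in normal Nes-GFP high BMSCs, had r = 0.65 but a Spearman's rho of 0.16, so that their ranks over the 14 libraries ran together only weakly.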

How the data were processed

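Per the labels and the study's methods, the authors amplified mRNA of sorted BMSCs by Smart-seq2, removed adaptors (Trim Galore 0.4.1), mapped the reads to mm10, which is GRCm38 (TopHat2 2.1.0), and summed them by gene (featureCounts). The authors deposited the resulting raw read counts, whole numbers without scaling. The table held 2 further columns that map to no sample and were not used. Use of strand and treatment of reads with several matches are not given in the sources used here. Libraries were grouped by their labels.

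Members were tested in a fit of all genes by the quasi-likelihood method of edgeR 4.0.16 (R 4.3.3) on 14 libraries in 4 groups with TMM, filterByExpr (minimum count 10), 5 comparisons and Benjamini-Hochberg adjustment over all genes, two-sided, threshold 0.05. DESeq2 1.42.0, limma voom 3.58.1, other scalings and filters, a replicate block, the pseudogene's counts and each library left out were alternatives. Exact permutation tests used log2(CPM + 1). The fits were tested on simulated data. Totals ranged from 5615941 to 11436652 counts per library; intervals and the floor of 3 counts cover counting error only, since reads carried no molecular identifiers. No pair of libraries of a group agreed within sampling noise.

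The members and the gene lists were chosen with earlier results of these data known. All members are named; of each list, genes with the smallest edgeR p in AML against normal may be named (3 in Nes-GFP high, 2 in Nes-GFP low). Positions are from GENCODE M21, and promoters from RefSeq (GRCm38.p6), which matched 9 of 10 members.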

Additional observations from a re-analysis of the deposited data

Results flagged for a closer look

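The effect of AML differed between Nes-GFP high and Nes-GFP low BMSCs for Mfn2 and Fundc1 by DESeq2's interaction test. The difference was 6.34 on the log2 scale for Mfn2 (DESeq2 adjusted p = 0.00388) and 4.80 for Fundc1 (DESeq2 adjusted p = 8.713e-05). Both genes were higher in 2 of 2 AML than in 2 of 2 normal Nes-GFP high libraries, as were 16.0% of all genes. They overlapped between AML and normal Nes-GFP low libraries. DESeq2 called 3.19% of all genes higher in the interaction. EdgeR's quasi-likelihood test did not call either difference (adjusted p = 0.349 and 0.305). The values rest on 2 normal Nes-GFP high libraries with 14 counts of Mfn2 and 11 of Fundc1 in all. In replicate 1 of these, 23.5% of the genes that averaged 10 CPM or more fell below 1 CPM. The part of library quality or of other cell types in them was not tested.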

How the results depend on the processing

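Of 50 log2 fold changes (10 genes in 5 comparisons), 29 kept their direction under every alternative tried and 21 turned in 1 or more, among the latter none of Fundc1 and only that in Nes-GFP low BMSCs of Mfn2. The number of members called was 0 by edgeR in all 5 comparisons and 2 by DESeq2 in AML against normal Nes-GFP high, in normal high against low and in the interaction; with each library left out it ran from 0 to 2 in these 3 and stayed at 0 in the other 2. The count of 2 came from leaving out normal Nes-GFP high replicate 2, upon which edgeR called 194, 189 and 144 of all genes in these 3. The number with an exact p under 0.05 in Nes-GFP low BMSCs was 1, but 2 with TMMwsp, 0 with DESeq2 size factors, and from 0 to 3 with each library left out; it was 0 without AML replicate 2, 3 or 4 or normal replicate 4. The exact p of Pink1 ran from 0.00952 to 0.107 over its alternatives. The cause of these changes was not tested.

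Under limma voom, Dnm1l turned to 0.44 in AML against normal Nes-GFP high, to -0.11 in normal high against low and to 0.062 in the interaction, and Mfn2 and Opa1 turned to 0.10 and 0.032 in AML against normal Nes-GFP low. With genes of at least 10 CPM only, Bnip3l in AML high against low was -0.0072. The labels do not say whether same-numbered libraries share a mouse or a batch. The correlations of their deviations from group means ran from -0.20 to 0.50 over 10 pairs. They do not settle this. In groups of 2 the deviations mirror each other, and the pairs of AML and normal Nes-GFP low libraries ran from -0.14 to 0.50. The highest was that of replicate 3, whose AML and normal libraries had myeloid marker sums of 102600 and 108300 CPM. The part of cell content in it was not tested. With the replicate block 0 members were called, and it turned Opa1 to 0.15 and Bnip3 to -0.56 in AML against normal Nes-GFP low, and Dnm1l, Mff, Pink1 and Bnip3 to -0.16, -0.012, -0.15 and -0.13 in normal high against low.

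With each library left out, the fold changes that turned ran as follows. In AML against normal Nes-GFP high, Mfn1 ran from -3.55 to 3.34, Dnm1l from -0.95 to 1.79 and Mff from -1.17 to 0.90. In AML against normal Nes-GFP low, Bnip3 ran from -0.84 to 0.58, and the log2 level differences from -0.14 to 0.90 for Mfn1, -0.75 to 0.25 for Mfn2, -8.303e-05 to 0.36 for Fis1 and -1.29 to 0.44 for Bnip3. In AML high against low, Bnip3l ran from -0.084 to 0.16, Dnm1l from -0.49 to 0.054, Mff from -0.81 to 0.42, Opa1 from -0.28 to 1.01 and Pink1 from -0.10 to 0.87. In normal high against low, Mfn1 ran from -3.52 to 2.98, Dnm1l from -1.63 to 1.06, Fis1 from -0.25 to 0.060, Mff from -0.65 to 1.19 and Pink1 from -0.34 to 0.69. In the interaction, Mfn1 ran from -4.22 to 2.67, Dnm1l from -1.38 to 1.32, Mff from -1.50 to 0.58 and Pink1 from -0.42 to 0.79.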
